A study of Mus musculus with 2 samples.

Results

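The potassium channel genes of the mouse were followed across pancreatic endocrine cells of 2 genotypes. Members were all genes whose symbol starts with Kcn followed by a letter, without Kcnj8, Kcnj11, Kcnq1ot1 and symbols ending in os. This gave 94 members among 99 such symbols and 46984 listed features. The rule uses symbols only and no measured value. It keeps 2 noncoding antisense genes, Kcnmb4os1 and Kcnmb4os2.

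Potassium channels let potassium ions leave the cell and hold its membrane potential negative. In islet cells, metabolism of glucose closes the ATP-sensitive channel built from Kcnj11 and Abcc8, the membrane depolarises, calcium enters and hormone is released. Voltage-gated (Kv) and calcium-activated channels then repolarise each action potential, two-pore-domain channels carry the resting leak, and G protein-gated inward rectifiers lower excitability when inhibitory receptors are occupied. Auxiliary subunits, such as the KChIP, Kv-beta and BK-beta proteins, change the gating and surface delivery of the pore-forming subunits.

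The series held 2 single-cell libraries of tdTomato-positive islet cells from 1-month-old mice, each from 3 pooled animals. Control animals were Neurod1 Cre/+; Isl1f/+ and Isl1CKO animals Neurod1 Cre/+; Isl1f/f, so both groups carry the Cre, which acts where Neurod1 is expressed, and the control has 1 floxed Isl1 allele too. Isl1 encodes a LIM-homeodomain protein that islet endocrine cells use as a transcription factor. The labels call the control pool males and the Isl1CKO pool female and male, whereas cells with UMIs (barcoded RNA molecules, the unit counted here) of Xist and none of 4 Y-linked genes made up 23.1% of control and 65.5% of Isl1CKO endocrine cells.

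The libraries held 48685758 and 86086781 UMIs, and 3948 control and 8120 Isl1CKO endocrine cells were kept, with medians of 8859.5 and 8157.5 UMIs. Cells that passed the quality filters shared 8 barcodes between libraries (0.19% of control and 0.0972% of Isl1CKO cells). Mitochondrial UMIs made up 0.642% and 1.61%. Isl1 RNA stood at 304 and 246 CPM, but the kit reads 3′ ends, which a deletion elsewhere in the gene can leave in place, and the genotypes are therefore taken from the labels alone. With 1 library per genotype no difference has a replicate check, no test was made and no p-value is given. CPM are UMI counts scaled to a common library total by the TMM method, ratios are log2, and values in brackets after a level or ratio are 95% intervals that cover counting error only.

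Control cells were grouped by the hormones that took at least 1% of their UMIs. There were 1561 Gcg-only, 429 Ppy-only, 214 Sst-only and 181 insulin-only cells, 1467 cells with 2 or more hormones and 96 with none. Hormones were low in Isl1CKO, so its cells were grouped by insulin share first, with 464 high-insulin cells (at least 5%) and 463 low-insulin cells (1% to under 5%). The rest were split by Irx1 and Irx2, transcription factors of alpha cells, and Hhex, one of delta cells, at 2 UMIs or more. This gave 2324 Irx cells, 84 Hhex cells, 8 cells with both, which are not described, and 4777 cells with neither. The labels of the groups were checked against other markers. The Irx cells had 2100.0 CPM of Gcg against 357859 in control Gcg-only cells. The Hhex cells had 2764 CPM of Sst against 107067 in Sst-only cells. A list of 6 delta cell genes, which includes Hhex itself, took 0.571% of UMIs in Hhex cells. It took 15.3% in Sst-only and 0.0858% in Irx cells. Of the 6 only Ghsr, a delta cell receptor, was at 0 in Hhex cells. Ghsr was also at 0 in high-insulin, low-insulin and Irx cells. High-insulin cells had 46.9 CPM of Pdx1 against 279 in control insulin-only cells, and Mafa, a factor of mature beta cells, at 0.217 against 11.7. The Isl1CKO groups are therefore called by the genes that set them, and a ratio between genotypes may reflect which cells are in a group as well as their RNA, which cannot be told apart. Markers of acinar, ductal, macrophage, stromal, endothelial and Schwann cells each took at most 0.051% of UMIs in any group of either library.

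Most members were absent or rare. Of the 94, 15 had 0 UMIs in the endocrine cells of both libraries, 23 had 1 to 19 and 56 had 20 or more. In at least 1 of the 11 groups compared 29 members reached 5 CPM and 13 reached 20 CPM, while 65 stayed under 5 CPM in every group. Just outside the 20 CPM limit were Kcnj6 at 17.6 and Kcnip4 at 19 CPM, both in control Ppy-only cells, and just inside were Kcnk2 at 21.0 and Kcna5 at 22.0 CPM, both in Sst-only cells. At 5 CPM, Kcnh7 (4.67) and Kcnh3 (4.69) were the nearest below, and Kcnj2 (6.8) and Kcnu1 (7.21) the nearest above. Because the kit counts each RNA molecule at its 3′ end, CPM of different genes are compared without scaling by length.

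The classes differed in size. In control endocrine cells the 17 auxiliary subunit genes summed to 135 CPM (132 to 139) and the 14 two-pore-domain genes to 135 CPM (131 to 138), the 2 largest sums. The 17 pore-forming Kv genes summed to 67.4, the 8 calcium- and sodium-activated genes to 42.1, the 8 EAG, ERG and ELK genes to 41.2, the 13 inward rectifiers to 16.2, the 5 KCNQ genes to 1.51 and the 10 electrically silent Kv genes to 0.427 CPM. All members together took 439.8 CPM (433 to 446) in control and 463 CPM (459 to 467) in Isl1CKO, a log2 ratio of 0.07 that became 0.60 without TMM, -0.14 with totals that leave out hormone genes and -0.03 with DESeq2 size factors, so its direction was not settled. Among the groups the sum ran from 371 CPM in Gcg-only cells to 524 CPM in Sst-only cells.

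**Figure D1:**
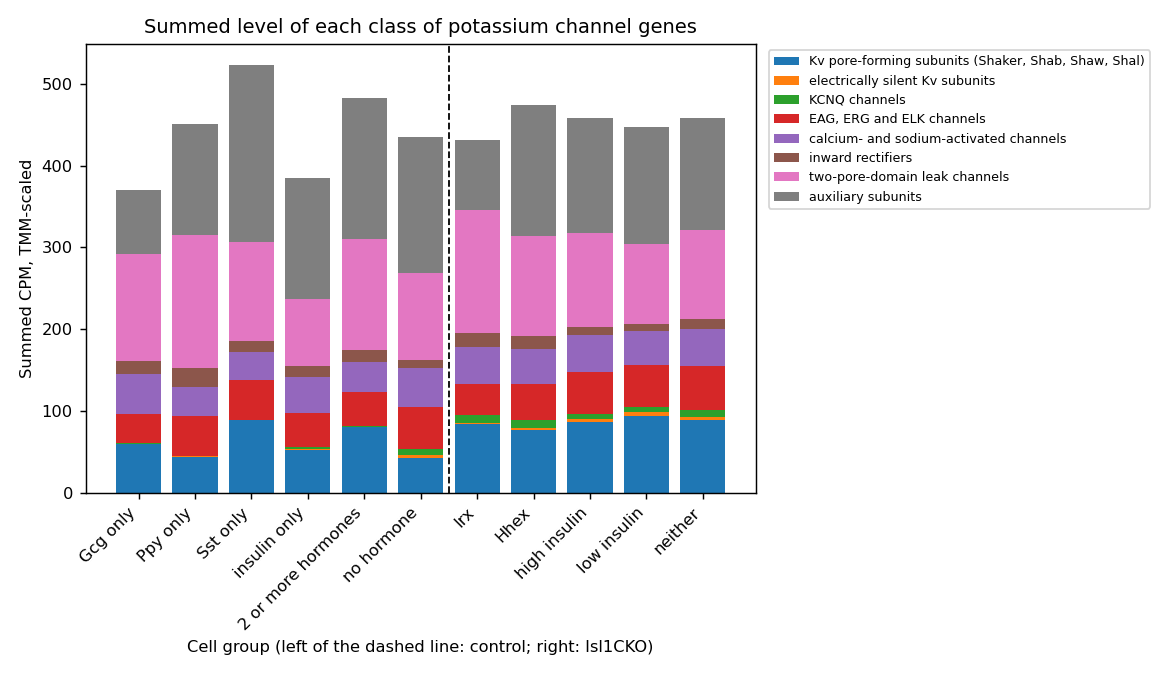
Summed CPM (vertical axis, TMM-scaled) of the members in each channel class, stacked, for the 6 control groups left of the dashed line and 5 Isl1CKO groups right of it. Auxiliary and two-pore-domain genes form the largest blocks, and the KCNQ block is thicker in the Isl1CKO groups than in Gcg-only, Sst-only and Ppy-only cells.

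Members differed between genotypes in both directions. A gene was measured in a comparison at 5 CPM or more and 20 UMIs or more in 1 of its groups, and counted as higher or lower at 2-fold or more. Over all endocrine cells 26 members were measured, of which 7 were higher and 7 lower in Isl1CKO, against 6.82% higher and 5.9% lower among the 9919 genes measured. Lower were Kcnip4, Kcnip1, Kcnb2, Kcna5, Kcnk2, Kcnj6 and Kcnk16, and the higher ones included Kcnc1, Kcnq1, Kcnc4, Kcnmb4, Kcnip3 and Kcnh1. The members' median log2 ratio was -0.04, beside 0.07 over all measured genes. Without TMM 10 of 29 were higher and 5 lower (22.8% and 2.71% of all genes). Totals without hormone genes gave 5 of 24 higher and 8 lower (4.41% and 9.28%). Over male cells alone Kcnip3, Kcnmb4, Kcnk2 and Kcnk16 were under 2-fold, at 0.80, 0.96, -0.58 and -0.46.

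In Irx against Gcg-only cells 21 members were measured, with 3 higher and 3 lower (7.89% and 6.05% of 9716 genes), a median of 0.14 beside 0.09. The higher genes were Kcnq1, Kcnc4 and Kcnip3 and the lower ones Kcnip4, Kcnj6 and Kcnu1. This split rested on the scaling: it was 7 of 24 higher and 1 lower without TMM (16.9% and 3.61%), 2 of 20 higher and 7 lower with hormone genes left out (4.25% and 11.5%), and 3 higher and 5 lower of 21 with DESeq2 size factors (6.16% and 7.53%).

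In high-insulin against control insulin-only cells 19 members were measured, with 5 higher and 2 lower (9.65% and 5.2% of 9273 genes), a median of 0.27 beside 0.04. The higher ones included Kcnc1, Kcnip3, Kcnk3 and Kcnab3, and Kcnip1 and Kcnb2 were lower. Without TMM Kcnb2 was at -0.34, and 17 of 22 were higher and 1 lower, when 55.7% of all measured genes were higher and 1.11% lower.

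In Hhex against Sst-only cells 16 members were measured, with 3 higher and 6 lower (8.13% and 13.8% of 7626 genes), a median of -0.26 beside -0.11. The higher ones included Kcnip3 and Kcnk3, and the lower ones were Kcnb2, Kcnk2, Kcnip1, Kcnip4, Kcna5 and Kcnh8. The 84 Hhex cells gave 845948 UMIs, the least of any group in the 4 comparisons between genotypes, and 70 of them were female and 3 male cells against 33 and 105 of the Sst-only cells.

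Control cells were in part the same in the first comparison and the other 3, so these are not independent. Of the 28 members measured in at least 1 of these 4 comparisons, 9 were higher at least once, 9 were lower at least once and 0 went both ways, against 16.6%, 16.5% and 0.832% of the 10332 genes so measured. Of the 10 members measured in each of the 3 lineage comparisons, 1 was higher in all of them, Kcnip3. The share of all genes higher in all 3 was not counted. Of the 10 members measured in all 4, 6 were called in none, among them Kcnh2, Kcnk1, Kcnk12, Kcnma1 and Kcnmb2, and of the 7303 genes measured in all of them, 71.8% were called in none.

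**Figure D2:**
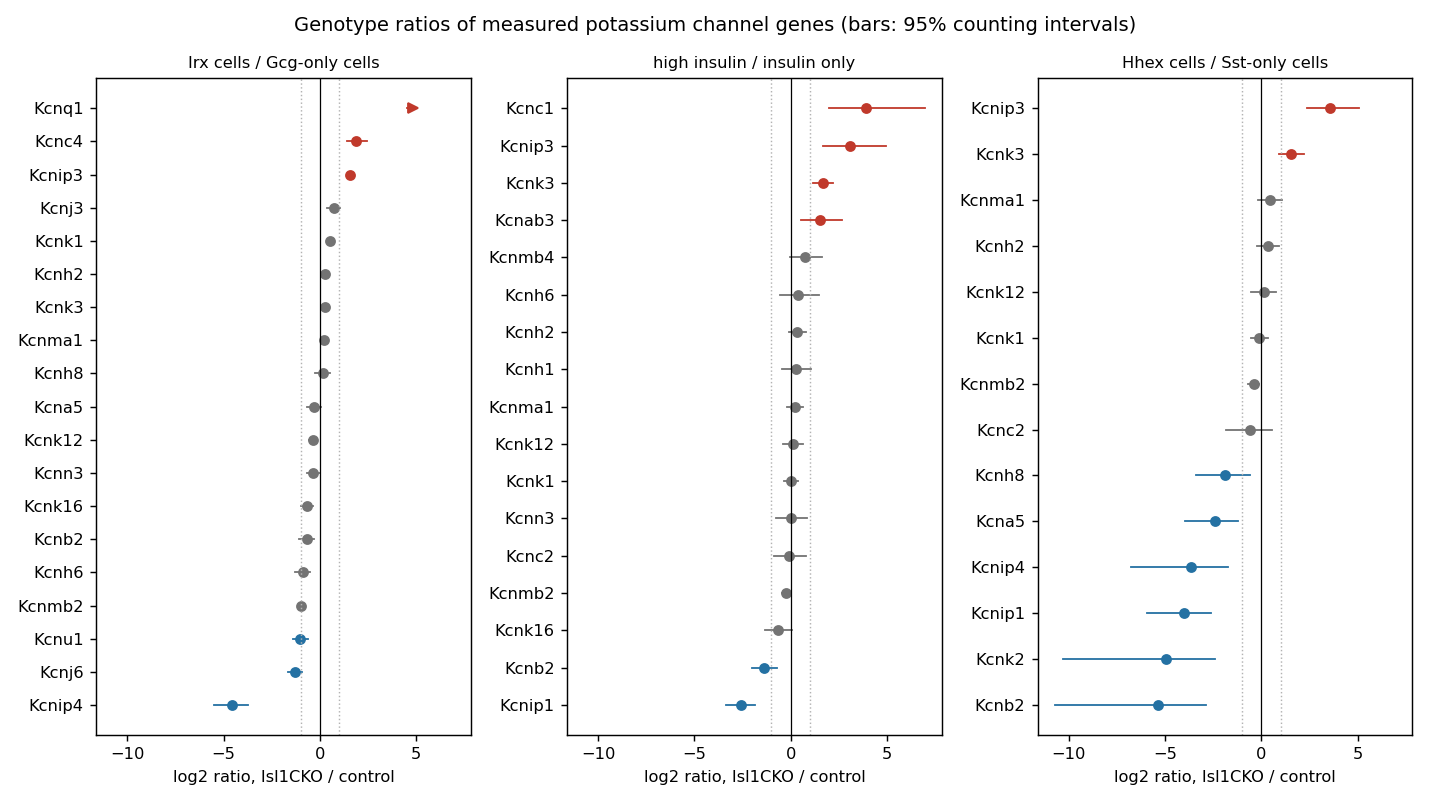
Log2 ratio of Isl1CKO over control (horizontal axis) for the measured members described here in the 3 lineage comparisons, with 95% counting intervals as bars and dotted lines at 2-fold. Red marks members at least 2-fold higher and blue at least 2-fold lower. The triangle marks Kcnq1, which had 0 UMIs in Gcg-only cells and was set against a floor of 3 counts.

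The KChIP genes differed between genotypes in both directions. KChIPs are calcium-binding proteins that join Kv4 channels and speed their recovery, and KChIP3, also known as DREAM, can also bind DNA. The Kv4 pore genes Kcnd1, Kcnd2 and Kcnd3 stayed under 5 CPM in every group, with highest levels of 4.33, 4.21 and 1.51 CPM. Kcnip4 (ENSMUSG00000029088.16, chromosome 5, 48389502 to 49524907, GRCm38, minus strand) was found in every control group, from 1.8 CPM in insulin-only to 19 CPM in Ppy-only cells. In Isl1CKO the 41 UMIs in all endocrine cells gave 0.369 CPM (0.265 to 0.501) against 12.2 CPM (11.1 to 13.3) in control, a log2 ratio of -5.05 (-5.54 to -4.58). Each of the Isl1CKO groups was at or under 1.36 CPM, and low-insulin cells had 0 UMIs, which allows up to 0.420 CPM. The ratio was -5.60 over female and -4.80 over male cells.

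Kcnip1 (ENSMUSG00000053519.15, chromosome 11, 33629339 to 33993152, minus strand) was uneven in control, with 44.4 CPM (35.9 to 54.3) in Sst-only and 17.6 CPM (12.5 to 24) in insulin-only cells, 4.22 CPM in Ppy-only and 0.191 CPM in Gcg-only cells. Free RNA of that library held 13.9 CPM, while Gcg-only cells had 3 UMIs in all. In Isl1CKO it was 2.72 CPM in Hhex, 2.93 in high-insulin and 0.392 in Irx cells. The log2 ratio was -4.03 (-5.93 to -2.62) in Hhex against Sst-only and -2.59 (-3.35 to -1.84) in high-insulin against insulin-only cells. In both pairs the 95% intervals of the 2 levels did not overlap.

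Kcnip3 (ENSMUSG00000079056.12, chromosome 2, 127456498 to 127522094, minus strand) went the other way. It stood at 17.5 CPM (15.5 to 19.7) in Gcg-only, 12.4 in Ppy-only, 2.8 in Sst-only and 1.8 in insulin-only cells, and at 52.3 CPM (49.9 to 54.7) in Irx, 33.3 CPM (24.7 to 44.1) in Hhex and 15.1 CPM (12.7 to 17.8) in high-insulin cells. The log2 ratios were 1.58 (1.39 to 1.76), 3.57 (2.35 to 5.09) and 3.06 (1.67 to 4.96) for the Irx, Hhex and high-insulin comparisons. Over male cells alone the ratio was 0.80 in all endocrine, 0.80 in Irx and 0.80 in high-insulin cells, each under 2-fold, and over female cells 1.78 and 1.87 in the first and second. Sst-only and insulin-only cells, the lowest control groups, had the larger ratios over all cells. Control insulin-only cells held 4 UMIs of Kcnip3 in all, so the insulin ratio over male cells rests on no more than 4 control UMIs. Whether that ratio differs from the Irx ratio over male cells cannot be said.

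The promoters of the KChIP genes and of Kcnc1 are shown because over all endocrine cells Kcnip4 and Kcnip1 had the largest ratios below 0 and Kcnc1 the largest above 0, and because Kcnip3 was called in each lineage comparison. The sequences are from RefSeq (GRCm38.p6), each 250 bases before to 50 after the most upstream start in its table, on the gene's strand, and the counts do not show which start the cells used. The Kcnip4 window lies inside the gene as the files place it, whose end is further upstream.
Kcnip4, chr5:49285610-49285909, minus strand: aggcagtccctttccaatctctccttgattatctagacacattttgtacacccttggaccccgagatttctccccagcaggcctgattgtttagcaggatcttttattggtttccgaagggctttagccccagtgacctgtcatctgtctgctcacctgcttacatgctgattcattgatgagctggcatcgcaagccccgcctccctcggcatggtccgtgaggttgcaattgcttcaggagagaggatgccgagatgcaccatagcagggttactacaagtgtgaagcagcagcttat
Kcnip1, chr11:33993144-33993443, minus strand: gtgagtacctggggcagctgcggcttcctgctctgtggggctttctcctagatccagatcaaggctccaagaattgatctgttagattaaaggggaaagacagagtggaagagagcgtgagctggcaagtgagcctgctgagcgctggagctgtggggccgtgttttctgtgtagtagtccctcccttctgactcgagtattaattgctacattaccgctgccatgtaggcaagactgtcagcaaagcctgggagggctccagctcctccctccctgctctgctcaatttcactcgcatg
Kcnip3, chr2:127522045-127522344, minus strand: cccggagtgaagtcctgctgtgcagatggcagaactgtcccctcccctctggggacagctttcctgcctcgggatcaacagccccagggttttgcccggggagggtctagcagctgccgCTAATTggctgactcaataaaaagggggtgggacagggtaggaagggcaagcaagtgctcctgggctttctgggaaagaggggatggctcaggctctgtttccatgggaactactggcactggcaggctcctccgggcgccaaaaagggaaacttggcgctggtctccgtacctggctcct
Kcnc1, chr7:46396218-46396517, plus strand: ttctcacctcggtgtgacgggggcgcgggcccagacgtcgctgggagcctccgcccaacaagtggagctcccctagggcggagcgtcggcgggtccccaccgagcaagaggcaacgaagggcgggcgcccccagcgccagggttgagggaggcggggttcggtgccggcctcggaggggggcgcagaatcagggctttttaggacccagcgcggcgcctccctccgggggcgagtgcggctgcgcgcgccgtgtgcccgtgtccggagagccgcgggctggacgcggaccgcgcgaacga
Capitals mark a match to CTAATG or CTAATT on either strand, letters of the TAAT kind that homeodomain proteins are known to bind. Kcnip3 had 1 match and the other three had 0. A match stood in 4 of the 69 member promoters in the table (5.8%) and in 14.9% of all 27025 promoters. The Kcnc1 promoter was 74.7% G and C with 41 CpG pairs, against 51.0% and 7 in Kcnip4, 54.3% and 7 in Kcnip1 and 60.3% and 8 in Kcnip3. The medians were 59.7% and 10 pairs over members and 52.7% and 7 over all genes. A match is a description of letters, and no binding was measured here.

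Among the pore-forming Kv genes, Kcnc1 and Kcnc4 of the Shaw group were higher in Isl1CKO, and Kcnb2 of the Shab group and Kcna5 of the Shaker group lower. Shaw (Kv3) channels open only at strongly depolarised potentials and close fast, which suits rapid firing. Kcnc1 (ENSMUSG00000058975.6, chromosome 7, 46396497 to 46438704, plus strand) had 29 UMIs in all control endocrine cells, 0.728 CPM (0.488 to 1.05), and 11.1 CPM (10.5 to 11.8) in Isl1CKO, a log2 ratio of 3.94 (3.41 to 4.52). Female cells alone gave 4.51 and male cells alone 2.26. Among the Isl1CKO groups it was highest in low-insulin cells at 16.9 CPM (14.3 to 19.9), followed by cells with neither marker at 13.7, high-insulin cells at 13.4 and Hhex cells at 12.9, whose intervals overlap, and lowest in Irx cells at 3.92 CPM. Gcg-only cells had 0 UMIs, which allows up to 0.235 CPM. In high-insulin against insulin-only cells its ratio was 3.90 (2.01 to 6.96), from 124 against 2 UMIs.

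Kcnc4, the A-type member of the Shaw group, was at 2.23 CPM (1.55 to 3.1) in Gcg-only and 8.34 CPM (7.42 to 9.34) in Irx cells, a log2 ratio of 1.90 (1.39 to 2.45). Sst-only, Ppy-only and insulin-only cells had 0 UMIs of it. Kcnc2, another Shaw gene, was at 0.0637 CPM in Gcg-only and 1.09 CPM in Irx cells but between 4.69 and 10.3 CPM in the other single-hormone groups.

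The Shab (Kv2) channels carry most of the delayed rectifier current of beta cells. Kcnb2 (ENSMUSG00000092083.4, chromosome 1, 15287254 to 15723750, plus strand) was at 13 CPM (11.9 to 14.1) in control and 3.64 CPM (3.29 to 4.01) in Isl1CKO, a log2 ratio of -1.83 (-2.03 to -1.64). Kcnb2 in control was highest in Sst-only cells at 28.5 CPM (21.8 to 36.6) and lower in insulin-only cells at 15.8 CPM (11 to 21.9), Gcg-only cells at 5.99 and Ppy-only cells at 1.64 CPM. In Hhex cells it had 1 UMI against 61 in Sst-only cells, a log2 ratio of -5.39 (-10.72 to -2.86). In high-insulin against insulin-only cells it was at -1.38 (-2.01 to -0.73), and in Irx against Gcg-only cells at -0.69, under 2-fold.

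Kcna5, a Shaker (Kv1) delayed rectifier, was also lower in Isl1CKO, with a log2 ratio of -1.83 (-2.04 to -1.63) over all endocrine cells. It was at 22 CPM (16.1 to 29.2) in Sst-only cells, 7.5 in Ppy-only and 6.25 in Gcg-only cells, and at 0 UMIs in insulin-only cells, which allows up to 1.66 CPM. In Hhex cells it was at 4.08 CPM (1.5 to 8.89), a log2 ratio of -2.43 (-3.95 to -1.20), while Irx against Gcg-only cells gave -0.32. The sum over the Kv pore genes was 67.4 CPM (64.9 to 70.0) in control and 89.6 CPM (87.9 to 91.4) in Isl1CKO, a log2 ratio of 0.41 that stayed above 0 under every scaling tried (0.19 to 0.94).

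**Figure D3:**
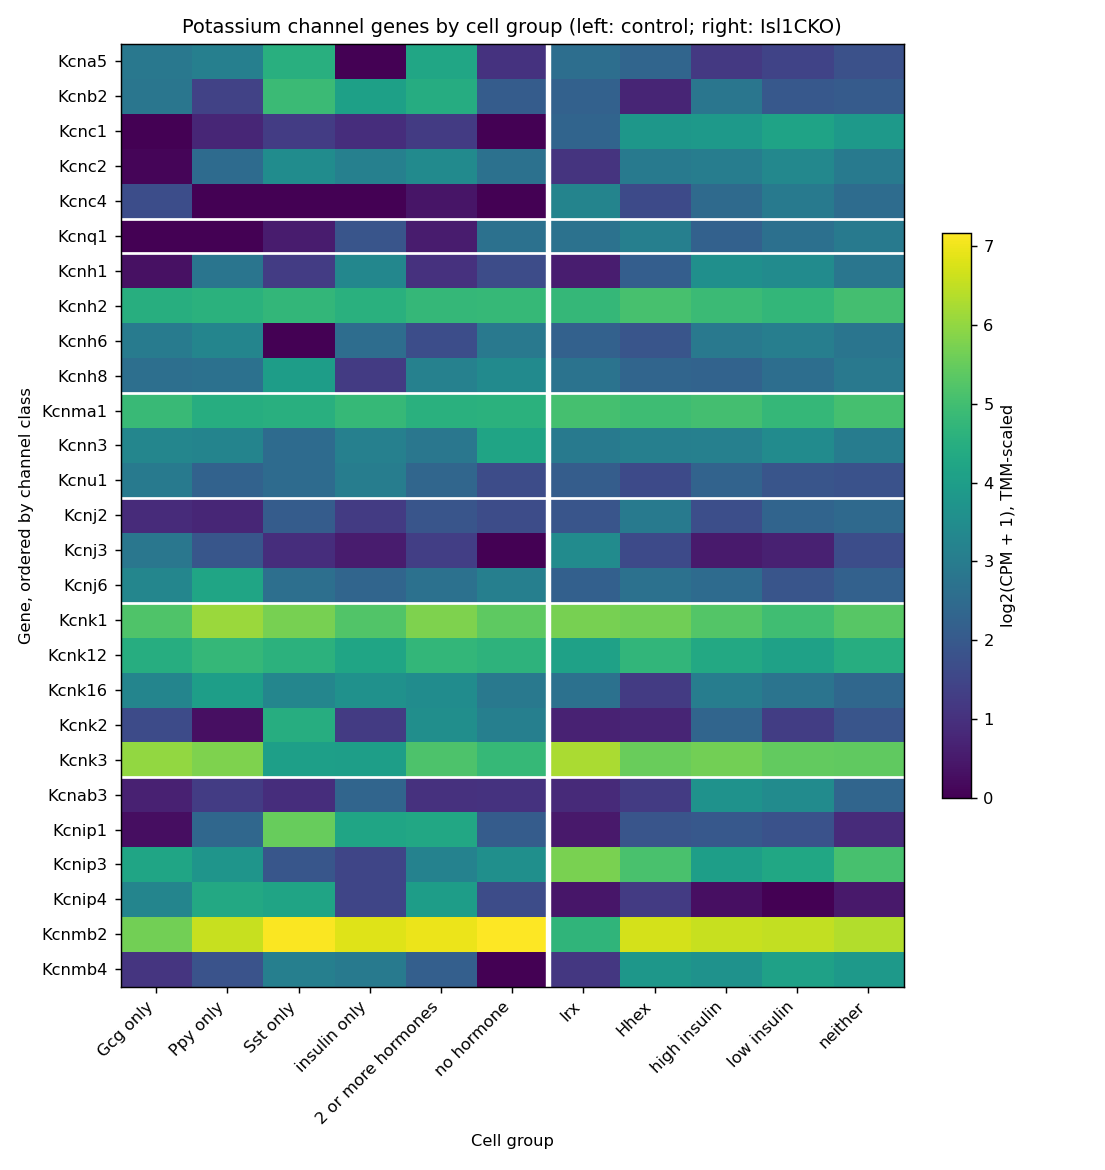
Level of 27 of the 29 members that reached 5 CPM in a group, as log2(CPM + 1) by colour, with genes ordered by class between the white horizontal lines and groups on the horizontal axis (control left of the vertical line, Isl1CKO right). Kcnmb2 is the brightest row, Kcnip1, Kcnb2 and Kcna5 are brightest in control Sst-only cells, and Kcnip4 is dark in every Isl1CKO group.

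KCNQ channels carry slow, subthreshold currents, and Kcnq1 pairs with KCNE subunits in heart and epithelia. Kcnq1 (ENSMUSG00000009545.14, chromosome 7, 143106362 to 143427042, plus strand) was the KCNQ gene with the largest difference. It had 19 UMIs in all control endocrine cells and 687 in Isl1CKO, 0.477 CPM (0.287 to 0.745) and 6.19 CPM (5.73 to 6.67), a log2 ratio of 3.70 (3.04 to 4.44). Gcg-only cells had 0 UMIs and Irx cells 198. With a floor of 3 counts in Gcg-only cells Kcnq1 was 29.0-fold higher, 4.86 on the log2 scale. The lower limit of the counting interval was 4.55 on that scale. In control its highest levels were 2.71 CPM (0.993 to 5.89) in insulin-only and 5.42 CPM (1.76 to 12.6) in cells with no hormone, and the level in Isl1CKO ran from 3.69 CPM in high-insulin to 7.48 CPM in Hhex cells. Both sexes gave the ratio, 3.70 over female and 4.17 over male cells. The noncoding Kcnq1ot1 overlaps it on the opposite strand and went from 172 to 113 CPM, from 244 in Gcg-only to 106 in Irx cells. Whether counting used strand is not given in the sources used here, and without it reads of the 2 genes cannot be told apart. The 5 KCNQ genes summed to 1.51 CPM (1.15 to 1.94) in control and 9.17 CPM (8.61 to 9.75) in Isl1CKO, and Kcnq1 made up 67.5% of the latter.

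Of the EAG, ERG and ELK genes, 4 reached 5 CPM. Kcnh2, the ERG channel of cardiac repolarisation, ran from 21.5 CPM in Gcg-only to 32.7 CPM in Hhex cells. Kcnh1 (ENSMUSG00000058248.12, chromosome 1, 192190774 to 192510159, plus strand), the EAG1 channel, was high in the insulin groups of both libraries, with 9.02 CPM (5.51 to 13.9) in insulin-only and 10.8 CPM (8.82 to 13.2) in high-insulin cells against 0.255 CPM in Gcg-only and 0.476 CPM in Irx cells. It was not limited to them: control Ppy-only cells had 5.86 CPM (3.79 to 8.65), and Isl1CKO low-insulin cells 9.9 CPM (7.93 to 12.2), cells with neither marker 5.98 CPM (5.37 to 6.64) and Hhex cells 3.4 CPM (1.1 to 7.94). Its ratio between genotypes in the insulin groups was 0.27 (-0.44 to 1.04) and over all endocrine cells 1.52 (1.16 to 1.90). Kcnh8, an ELK channel, was at 15 CPM (10.2 to 21.1) in Sst-only and 4.08 CPM (1.5 to 8.89) in Hhex cells, a ratio of -1.87 (-3.42 to -0.60).

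The BK channel and its beta subunits gave the highest level of any member. BK channels open to calcium and voltage together. Their pore gene Kcnma1 stayed between 21.3 CPM in Ppy-only and 32.3 CPM in Irx cells. Kcnmb2 (ENSMUSG00000037610.15, chromosome 3, 31902507 to 32200180, plus strand), which makes BK channels inactivate, was the highest member in 5 of 6 control groups and 4 of 5 Isl1CKO groups compared. It stood at 138 CPM (123 to 155) in Sst-only, 112 CPM (98.8 to 127) in insulin-only and 93.2 CPM (84.3 to 103) in Ppy-only cells, lower in Gcg-only cells at 49.1 CPM (45.7 to 52.7), and at 143 CPM (119.6 to 169.5) in cells with no hormone. In Isl1CKO it was at 104 in Hhex, 93.9 in high-insulin and 79.9 CPM in cells with neither marker, and at 24.7 CPM (23.1 to 26.4) in Irx cells. Irx against Gcg-only cells gave -0.99 (-1.13 to -0.85), just short of 2-fold. Free RNA held 83.7 and 67.1 CPM of it, and the part of free RNA in the Gcg-only and Irx levels was not tested.

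Kcnmb4, the BK beta subunit best known from neurons, was at 2.86 CPM (2.36 to 3.44) in control and 10.1 CPM (9.49 to 10.7) in Isl1CKO, a log2 ratio of 1.81 (1.54 to 2.11). It was high in low-insulin cells (16.2 CPM), cells with neither marker (13.7), Hhex cells (12.9) and high-insulin cells (11.5) and low in Irx cells (1.23), the same division as Kcnc1. Its antisense neighbour Kcnmb4os2 was at 1.05 and 2.11 CPM, and Kcnmb4os1 had 0 UMIs. Kcnu1, the pH-sensitive Slo3 channel known from sperm, was at 6.69 CPM (5.47 to 8.1) in Gcg-only and 3.33 CPM (2.76 to 3.99) in Irx cells, a ratio of -1.01 (-1.40 to -0.61). This was under 2-fold over male cells (-0.59) and without TMM (-0.65), and in 5 of 17 other settings in all.

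Inward rectifiers were few once the pore of the ATP-sensitive channel was left out by the rule. Kcnj3 and Kcnj6 encode GIRK1 and GIRK2, which G protein-coupled receptors open. Kcnj3 (ENSMUSG00000026824.11, chromosome 2, 55435970 to 55598145, plus strand) went with the alpha lineage in both libraries, at 6.12 CPM (4.96 to 7.47) in Gcg-only and 10.1 CPM (9.06 to 11.2) in Irx cells against 0.451 CPM in insulin-only and 0.434 CPM in high-insulin cells. Between genotypes it was at 0.72 (0.39 to 1.06) in the Irx comparison. Kcnj6 was highest in Ppy-only cells at 17.6 CPM (13.8 to 22), was at 8.79 CPM in Gcg-only cells and 3.55 CPM in Irx cells, and its ratio there was -1.31 (-1.67 to -0.95).

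Of the two-pore-domain genes Kcnk1 and Kcnk12 were under 2-fold in all 4 comparisons between genotypes, Kcnk3 was higher in 2 of them and Kcnk2 lower in 2. Kcnk1 (TWIK-1) was between 30.5 CPM in low-insulin and 66.5 CPM in Ppy-only cells, and Kcnk12 (THIK-2) between 16 and 26.2 CPM in the same 2 groups. Kcnk3 (TASK-1, closed by acid) separated groups in control, at 63.4 CPM (59.5 to 67.5) in Gcg-only and 54.3 CPM (47.6 to 61.8) in Ppy-only against 15.4 CPM (10.6 to 21.7) in Sst-only and 15.3 CPM (10.6 to 21.4) in insulin-only cells. In Isl1CKO all groups were between 41.6 and 75.8 CPM, and the log2 ratio was 1.54 (0.92 to 2.19) in Hhex and 1.66 (1.16 to 2.21) in high-insulin cells but 0.26 in Irx cells. The spread of Kcnk3 between groups was thus narrower in Isl1CKO than in control, a difference that was not tested.

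Kcnk2 (TREK-1, a stretch-sensitive channel) was at 21 CPM (15.3 to 28.1) in Sst-only cells, 10.7 CPM in cells with 2 or more hormones and 2.1 CPM in Gcg-only cells. Hhex cells had 1 UMI against 45 in Sst-only cells, a log2 ratio of -4.95 (-10.29 to -2.40). Over all endocrine cells it was -1.61 (-1.87 to -1.35), with -2.82 over female and -0.58 over male cells. Kcnk16 (TALK-1, an islet leak channel) was at 10.2 CPM (9.2 to 11.2) in control and 5.08 CPM (4.67 to 5.52) in Isl1CKO, a ratio of -1.0 (-1.19 to -0.81), with 11.3 CPM in insulin-only and 7.26 CPM in high-insulin cells. Kcnab3, a Kv-beta subunit, was at 11.5 CPM (9.41 to 13.9) in high-insulin and 9.9 in low-insulin cells of Isl1CKO against 4.06 CPM in control insulin-only and 0.812 CPM in Irx cells. It was not limited to the insulin groups: all Isl1CKO endocrine cells held 459 UMIs of it, 4.13 CPM, and high-insulin cells 106 of these.

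Within each library, insulin cells were then set against Gcg-only or Irx cells. In control 21 members were measured, of which 4 were higher in insulin-only cells and 7 lower (6.77% and 9.61% of 9362 genes). Higher were Kcnip1 at 6.52 (4.87 to 8.86), Kcnh1 at 5.14 (3.57 to 7.15), Kcnb2 at 1.40 (0.79 to 1.97) and Kcnmb2 at 1.19 (0.98 to 1.40). Lower were Kcnj3 at -3.76 (-9.08 to -1.25), Kcnip3 at -3.28 (-5.17 to -1.91) and Kcnip4 at -2.25 (-4.15 to -0.86). Also lower were Kcnk3 at -2.05 (-2.59 to -1.56), Kcnh8 at -1.91 (-4.22 to -0.31) and Kcnj6 at -1.12 (-2.27 to -0.15). Kcna5 was lower too, with 0 UMIs in insulin-only cells. It was 4.62-fold lower with a floor of 3 counts, -2.21 on the log2 scale, and the upper limit of its counting interval was -1.88. The median was -0.26 beside -0.02 over all genes. Without TMM 2 were higher and 11 lower, when 3.1% and 36.8% of all genes were.

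In Isl1CKO 23 members were measured, of which 6 were higher in high-insulin than in Irx cells and 3 lower (5.91% and 4.21% of 9668 genes), with a median of 0.20 beside -0.11. Higher were Kcnh1 at 4.51 (3.76 to 5.35), Kcnab3 at 3.82 (3.22 to 4.47), Kcnmb4 at 3.22 (2.7 to 3.76), Kcnc2 at 2.73 (2.14 to 3.34), Kcnmb2 at 1.93 (1.79 to 2.06) and Kcnc1 at 1.78 (1.42 to 2.14). Lower were Kcnj3 at -4.54 (-6.42 to -3.17), Kcna5 at -1.95 (-2.93 to -1.11) and Kcnip3 at -1.80 (-2.05 to -1.55). With totals that leave out hormone genes 8 of 20 were higher and 2 lower (9.23% and 2.43%). The 2 comparisons share no cells. Of the 17 members measured in both, 8 were called in control and 5 in Isl1CKO. Over the 8890 genes measured in both the shares called were 14.6% and 8.02%. The 5 called in Isl1CKO were called the same way in control, as were 60.9% of all genes called there, and they were 5 of the 8 called in control, against 33.5% of all genes: Kcnh1 and Kcnmb2 were higher and Kcnj3, Kcnip3 and Kcna5 lower in insulin cells. Kcnb2, Kcnk3 and Kcnh8, the other 3 called in control, were at 0.71, -0.64 and -0.53 in Isl1CKO.

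**Figure D4:**
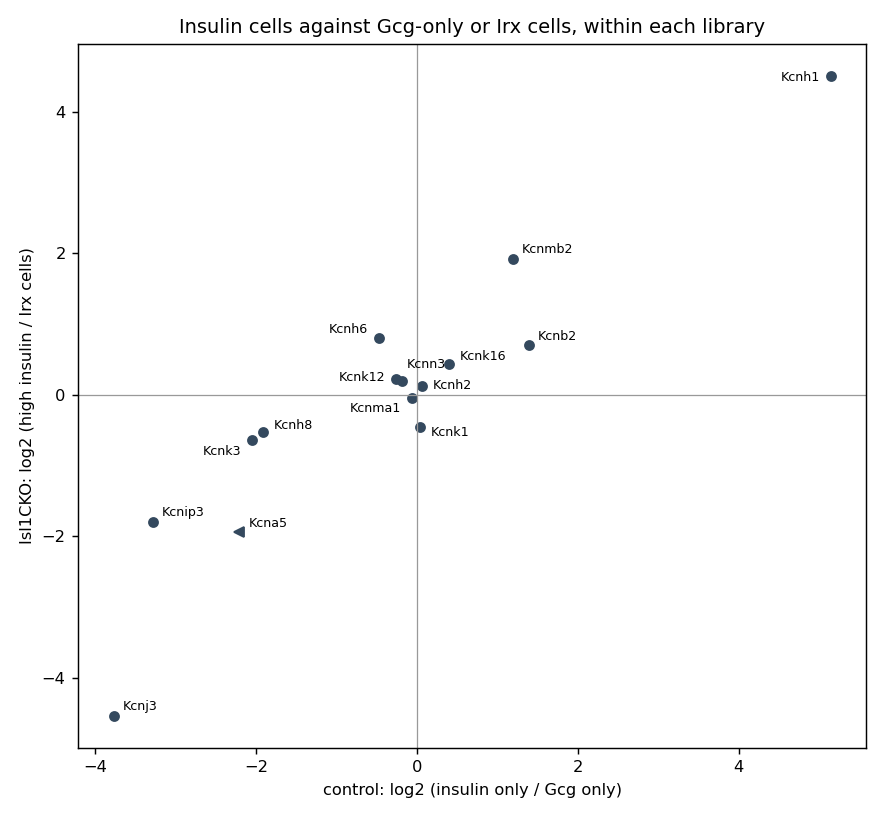
Log2 ratio of insulin-only over Gcg-only control cells (horizontal) against that of high-insulin over Irx cells of Isl1CKO (vertical) for 15 of the 17 members measured in both, 1 point per gene. Kcnh1 lies high in both and Kcnj3 low in both, and the triangle marks Kcna5, whose control value was set with a floor of 3 counts.

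Cells were split into those with Xist and no Y-linked UMIs, called female here, and those with Y-linked and no Xist UMIs, called male. The labels tie no cell to an animal and call the control pool males, and sex and animal cannot be told apart. In control Gcg-only cells the sexes had overlapping intervals for Kcnip3, with 17.2 CPM (13.7 to 21.3) in female and 18.9 CPM (15.6 to 22.6) in male cells. They also overlapped for Kcnk3 (53.3 and 62 CPM) and Kcnk16 (8.2 and 9.19). In Irx cells of Isl1CKO Kcnip3 was at 62.8 CPM (59.4 to 66.4) in female and 32.8 CPM (29.5 to 36.4) in male cells, Kcnk3 at 94.9 CPM (90.7 to 99.2) and 45.9 CPM (41.9 to 50.1), and Kcnk16 at 3.41 CPM (2.66 to 4.32) and 8.77 CPM (7.1 to 10.7). The intervals of the 2 sexes thus did not overlap for these 3 genes in Irx cells. The share of all genes with such a split was not counted, so it cannot be called particular to members. Median UMIs were 8688 in female and 14672.5 in male Irx cells.

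In high-insulin cells some members differed by sex too, and the share of all genes was not counted there either. Kcnip3 was at 23 CPM (18.8 to 27.9) in female and 4 CPM (2.13 to 6.84) in male cells, Kcnc1 at 19 CPM (15.2 to 23.5) and 5.23 CPM (3.05 to 8.38) and Kcnmb4 at 18.3 CPM (14.6 to 22.7) and 3.39 CPM (1.69 to 6.06). Kcnh1 was lower in female cells, at 5.75 CPM (3.75 to 8.42) against 15.1 CPM (11.2 to 19.9), and the intervals overlapped for Kcnk3, at 48.2 CPM (42 to 55) and 50.8 CPM (43.3 to 59.2). In Irx against Gcg-only cells the genotype ratio over female and male cells was 0.83 and -0.43 for Kcnk3. Female cells were the majority in Isl1CKO and the minority in control, and the part of this in the ratios over all cells was not tested. Ratios over female cells were not run for the high-insulin comparison, nor over either sex for the Hhex comparison, because too few cells were left. Kcnn3, an SK channel chosen here after its values were seen, was at 4.06 CPM (3.23 to 5.04) in female and 10.6 CPM (8.76 to 12.7) in male Irx cells, and at 10.3 and 9.83 CPM in control Gcg-only cells. Kcnip4 and Kcnip1 were low in both sexes of Isl1CKO, with 0.235 and 0.448 CPM of Kcnip4 and 0.676 and 1.96 CPM of Kcnip1 in female and male endocrine cells.

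**Figure D5:**
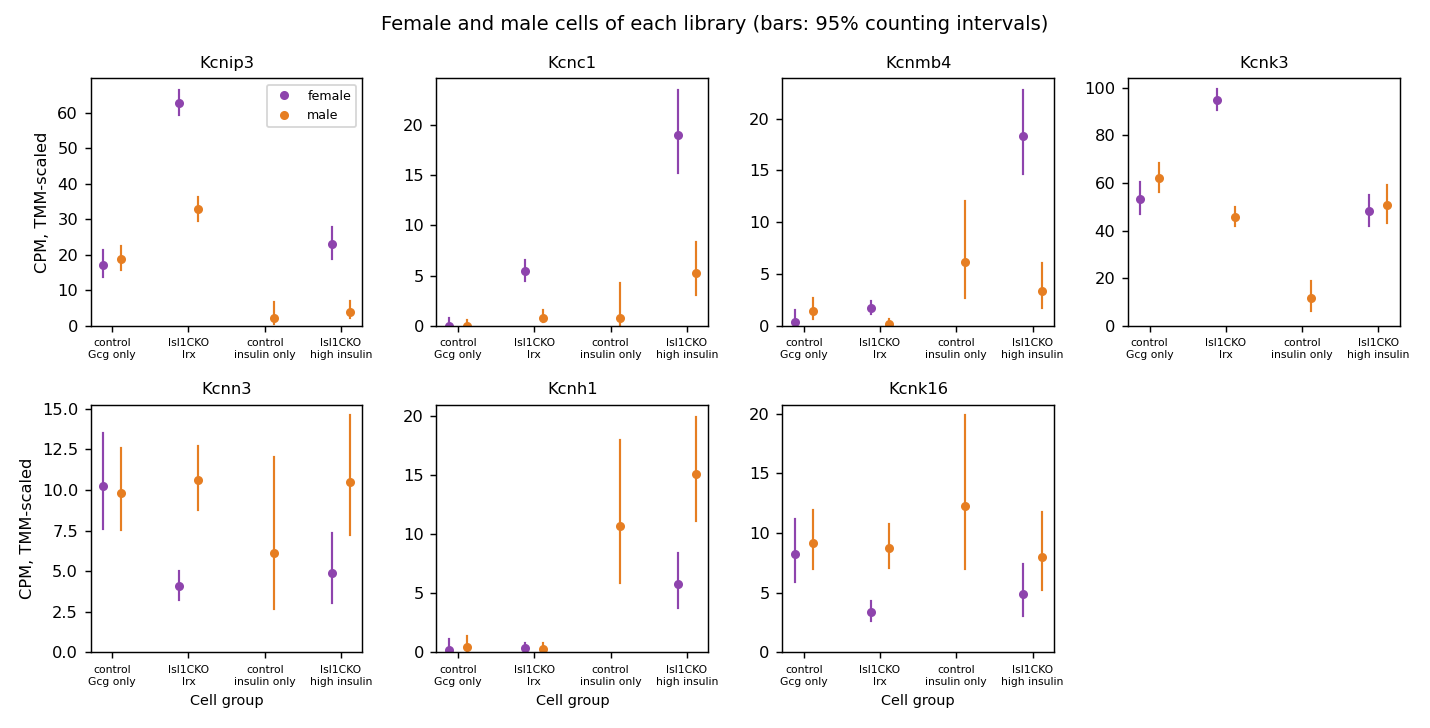
CPM (vertical axis, TMM-scaled) of 7 members in female and male cells of 4 cell groups, with 95% counting intervals, for groups with at least 50 cells of that sex. Female and male control Gcg-only cells lie together, while the Isl1CKO cells separate, with female cells above for Kcnip3, Kcnc1 and Kcnmb4 and male cells above for Kcnn3 and, in Irx cells, Kcnk16.

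The genes that act with these channels were taken from a list of 32 partners and potassium transporters. Over all endocrine cells 18 were measured, of which 0 were at least 2-fold higher and 3 lower (6.82% and 5.9% of all genes), with a median of 0.01 beside 0.07 over all genes. The 3 were Abcc8, the sulfonylurea receptor of the ATP-sensitive channel, at 210.5 CPM in control and 6.33 CPM in Isl1CKO with a log2 ratio of -5.05 (-5.17 to -4.94), and Dpp6 at -3.24 (-3.40 to -3.08) and Dpp10 at -2.95 (-3.10 to -2.82), which join Kv4 channels together with KChIPs. Dpp6 was at 115 CPM in Sst-only and 2.04 CPM in Hhex cells, a ratio of -5.82 (-8.11 to -4.26), but at 7.97 and 9.77 CPM in Gcg-only and Irx cells, and Dpp10 was at 57.5 and 6.58 CPM in these. Abcc8 was higher in high-insulin than in Irx cells, 47.8 against 2.44 CPM, and at similar levels in control insulin-only and Gcg-only cells, 202 and 183 CPM.

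In Irx against Gcg-only cells 17 partners were measured with 2 higher and 2 lower (7.89% and 6.05% of all genes). In the insulin comparison 16 were measured with 1 higher and 1 lower (9.65% and 5.2%), and in the Hhex comparison 14 with 0 higher and 3 lower (8.13% and 13.8%). The 2 higher ones in Irx cells were Atp1b1, a sodium pump subunit, at 1.26 (1.17 to 1.36), and Slc12a7, a potassium-chloride cotransporter, at 1.35 (0.92 to 1.81). Both were also higher in control insulin-only than in Gcg-only cells, at 1.37 (1.20 to 1.53) and 2.10 (1.41 to 2.78).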

How the data were processed

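Single cells were captured with a 10x 3′ kit (version 3.1) and the counts used are UMIs per gene and barcode, as deposited by the authors. Per the submitters' processing notes the tools named are STARsolo, STAR 2.7.3a and Seurat 4.3.0.1 and the build GRCm38.p6. The deposited matrices were unfiltered. Per the labels' protocols actinomycin D was present during dissociation.

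Barcodes with 1000 UMIs or more and 500 genes or more were taken as cells if mitochondrial genes held no more than 15% of their UMIs. Scrublet (scanpy 1.11.5) marked 249 of 4219 control cells, which were removed, and 0 of 8231 Isl1CKO cells, where it did not work; the control threshold would mark 360. Cells with 1% or more UMIs from a non-endocrine marker list were left out, 22 and 111. Counts were summed per group and scaled by TMM in edgeR 4.0.16 (R 4.3.3) against all control endocrine cells, with DESeq2 1.42.0 size factors as an alternative. Intervals are exact Poisson or conditional binomial (scipy 1.17.1) at 95%; a gene at 0 was set against a floor of 3 counts. Scripts were tested on simulated data. Named members had 20 CPM in a group of at least 50 cells, or were among the 10 called members with the largest fold each way in a comparison. The members and lists were chosen with earlier results of these data known. Some members enter the counts and sums but are not reported here by name.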

Additional observations from a re-analysis of the deposited data

Results flagged for a closer look

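Kcnh8 differed between genotypes in opposite directions in the sexes. In Irx against Gcg-only cells its log2 ratio of Isl1CKO over control was 1.14 over female and -1.27 over male cells, with 7.67 and 2.56 CPM in female and male Irx cells and 3.49 and 6.18 CPM in female and male Gcg-only cells. Kcnh8 was chosen after its values were seen, among 21 members measured in this comparison. All Irx cells held 201 UMIs of it and all Gcg-only cells 80, and each sex holds only part of these. Over all cells the ratio was 0.14 (-0.24 to 0.53). The share of all genes with opposite ratios in the sexes was not counted. The difference was not tested, and sex and animal cannot be told apart.

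The cells left out for non-endocrine markers held Kv1 channel RNA. Kcna1 was at 111 CPM in the 22 control and 16.0 CPM in the 111 Isl1CKO cells left out, and Kcna2 at 81.7 and 11.5 CPM, against 0.1 and 0.00901 CPM of Kcna1 and 0.251 and 0.72 CPM of Kcna2 in the endocrine cells of control and Isl1CKO. Both were chosen after their values were seen. In control, 5 of 9 cells with stromal markers held the 19 UMIs of Kcna1. In Isl1CKO, 4 of 8 such cells held 15 UMIs of it, and 85 cells with acinar markers had 0, against 6 acinar cells with 0 in control. Kcna2 had 14 and 11 UMIs in the stromal cells of control and Isl1CKO. The mix of cells left out thus differed between the libraries, and these levels are not a comparison of genotypes.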

How the results depend on the processing

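No paired analysis was possible because the groups compared share fewer than 2 replicate numbers. Of 176 counts of members under 17 other settings, 145 were within 1.5 times of the first count and 31 were not. Of 56 named gene and comparison pairs called under the first setting, 41 were at least 2-fold the same way under every setting run and 0 reversed. The pairs were chosen by their calls and every setting uses the same 2 libraries, so few reversals could occur and this is not a replicate check. The share over all called genes was not counted. The counts that differed follow, each with the number measured and, in brackets, the share over all genes. Without TMM, 7 of 24 were higher (16.9%) and 1 lower (3.61%) in the Irx and 17 of 22 higher (55.7%) and 1 lower (1.11%) in the high-insulin comparison, 2 of 21 higher (3.1%) and 11 lower (36.8%) within control, and 5 of 27 lower (5.41%) within Isl1CKO. In Irx cells 7 of 20 were lower (11.5%) with totals that leave out hormone genes, 5 of 21 with DESeq2 size factors (7.53%) and 5 of 21 with the control Scrublet threshold in both libraries (6.11%). With an Irx and Hhex limit of 1 UMI 5 of 19 were higher in Hhex cells (11.6%). With no CPM minimum 21 of 54 were higher over all endocrine cells (12.6%), 13 of 38 higher (12%) and 6 lower (8.6%) in Irx cells, 10 of 28 higher in high-insulin cells (12.1%), and 11 of 41 higher (6.43%) and 9 lower (8.59%) within Isl1CKO. With a 20 CPM minimum 2 of 9 were higher (6.18%) and 0 lower (5.08%) over all endocrine cells, 1 of 9 (7.62%) and 0 (4.75%) in Irx cells, 2 of 7 (6.71%) and 0 (5.47%) in high-insulin cells, 1 of 7 (8.19%) and 1 (6.66%) within control, and 1 of 8 (4.83%) and 1 (3.36%) within Isl1CKO. Over female cells 6 of 22 were higher (11.1%) and 7 lower (10.8%) in Irx cells. Over male cells 3 of 25 were higher over all endocrine cells (4.39%) and 5 of 21 lower within Isl1CKO (5.96%). The grouping of cells thinned to 3000 UMIs was chosen after seeing the data. Not run for fewer than 50 cells were the Hhex comparison with a limit of 3 UMIs, by sex or thinned, and the high-insulin and within-control comparisons over female cells. The causes were not tested. Each genotype has 1 library, and the Hhex comparison rests on 84 cells.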
